A study of Mus musculus with 2 samples.

Results

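Dual-specificity phosphatases (Dusp genes) and protein tyrosine phosphatases (Ptpn and Ptpr genes) were examined in natural killer (NK) cells of 2 sorts from mouse liver. The set was defined by gene symbol: every gene with a probe set annotated to it alone whose symbol starts with Dusp, Ptpn or Ptpr followed by a digit or letter. It held 59 of the 18194 genes named on the array, 24 Dusp, 16 Ptpn and 19 Ptpr genes, read by 129 of 45101 probe sets. Among the 59, Ptprcap encodes a protein that associates with CD45 and is no phosphatase; it was kept because the symbol rule takes it in. Where a gene had several probe sets, the brightest by mean log2 value of the 2 arrays stood for it.

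The groups were DX5- NK and DX5+ NK cells, sorted from livers of naive B6 wild-type mice as events positive for NK1.1 and negative for CD3. DX5 is an antibody to the integrin alpha 2 chain. There was 1 array per population, so no value has a spread between samples and no difference was tested; the labels state neither the number nor the age of the mice behind an array. Values are MAS5 intensities as deposited, a linear signal per probe set.

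Protein phosphorylation is set by kinases and phosphatases together. The typical dual-specificity phosphatases, also called MAP kinase phosphatases, remove phosphate from both the threonine and the tyrosine of the activation loop of ERK, JNK or p38, and several of them are transcribed in response to the pathway they switch off. The classical tyrosine phosphatases act on phosphotyrosine: receptor types such as CD45 span the membrane, and non-receptor types such as SHP-1 and SHP-2 are drawn to the inhibitory receptors of NK cells or act on Src-family and Janus kinases.

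The detection limit of an array was the 95th percentile of its signal over 152 probe sets for sensory receptor, lens and hair keratin families, at 98.5 intensity units for DX5- and 108 for DX5+ cells. Of the 59 genes, 33 exceeded both limits, 2 exceeded the limit in DX5- cells alone, 0 in DX5+ cells alone and 24 in neither; of all 18194 genes, 8759 exceeded both, 541 the DX5- limit alone, 543 the DX5+ limit alone and 8351 neither. Of the NK marker genes, 7 had a probe set, and all 7 were detected on both arrays. As T cell markers were detected too (below), this does not settle the identity of the sorted cells. Gzmb, a granzyme, read 32230 in DX5- against 32238 in DX5+ cells, and Ncr1, the NKp46 receptor, read 2390 in DX5- against 1788 in DX5+ cells. The 1 NK marker past 2-fold was Prf1, which encodes perforin, at 3108 in DX5- against 8978 in DX5+ cells (2.89-fold lower). Klrd1, which encodes CD94, was 1.71-fold higher in DX5- cells, and Klrk1, Nkg7 and Tyrobp lay between 1.19-fold lower and 1.04-fold higher. Itga2, the chain that DX5 binds, read 29.0 in DX5- against 105 in DX5+ cells, both below the limits, so the sort itself was not checked by its own transcript. No probe set was listed for Klrb1c, which encodes NK1.1, alone. The 3' probes of the actin control exceeded its 5' probes 1.73-fold for DX5- and 1.62-fold for DX5+ cells. For the Gapdh control the ratio of 3' to 5' probes was below 1, at 0.78 for DX5- and 0.77 for DX5+ cells. All 18 hybridisation spike-ins read lower for DX5- cells (median log2 ratio -0.22).

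Most of the phosphatase genes had similar intensities in both populations, and Dusp6 and Dusp10, a pair of MAP kinase phosphatases, stood apart. Of 35 detected genes, 2 passed 2-fold upward in DX5- cells and 0 passed it downward; among all 9843 detected genes, 3.62% passed it upward and 5.37% downward, 8.99% in all. At 1.5-fold, a threshold chosen after the values were seen, 3 were higher and 4 lower, 20.0% of the detected set against 24.0% of all detected genes (10.5% higher and 13.5% lower). The shares are near the background at both thresholds. Scaling the arrays to the spike-ins adds 0.22 to a measured log2 ratio; it left 2 and 0 genes of the set past 2-fold but turned the split of all genes to 620 upward and 348 downward, against 356 and 529 as deposited. Under it 7 of the 35 genes, Dusp2, Dusp28, Ptpn1, Ptpn11, Ptpn23, Ptprc and Ptprj, moved to the high side, so no direction is read from ratios this small. The median log2 ratio, DX5- minus DX5+, was 0.020 over the 35 genes and -0.012 over all detected genes (0.24 and 0.20 with spike-in scaling). The middle of the distribution, between the 25th and 75th percentiles, ran from -0.23 to 0.24 in the set and from -0.33 to 0.27 over all detected genes.

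**Figure D1:**
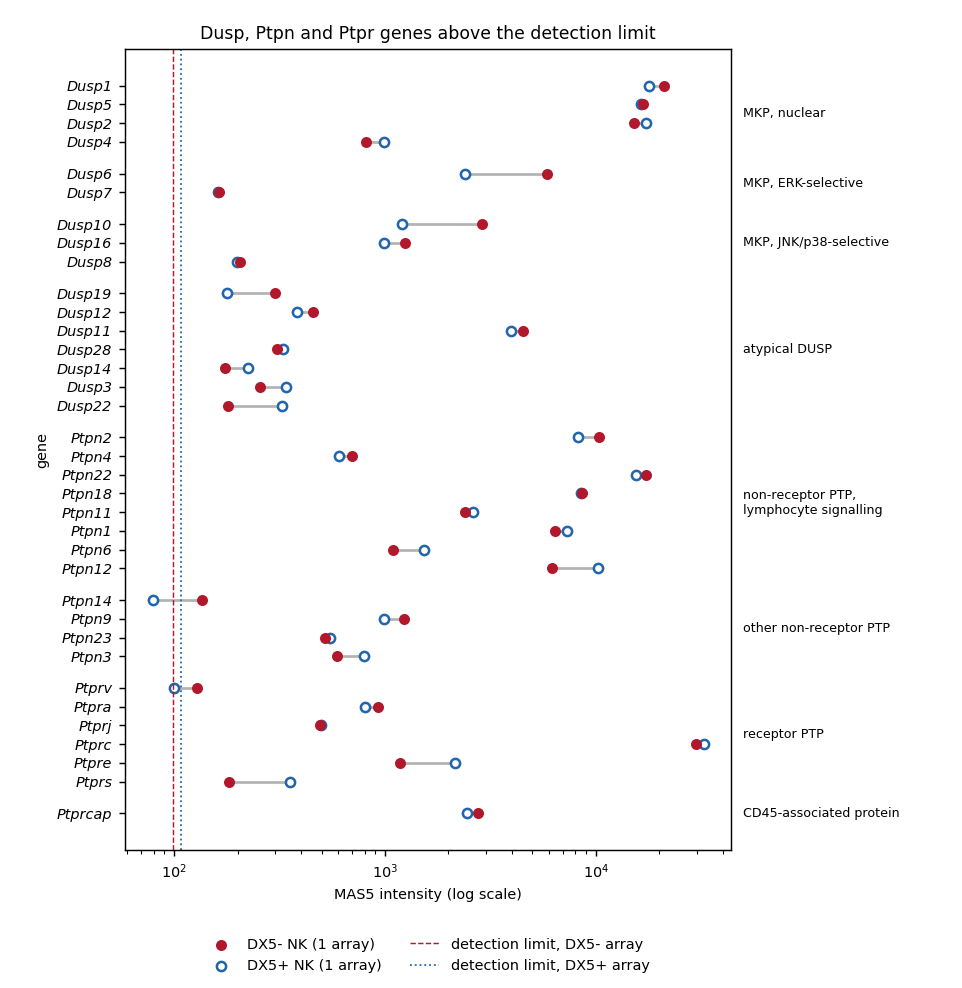
MAS5 intensity on a log axis of the 35 detected Dusp, Ptpn and Ptpr genes, 1 point for the DX5- array (filled) and 1 for the DX5+ array (open), grouped by role, with the detection limit of each array as a vertical line. The longest gaps to the right are those of Dusp6 (5834 in DX5- against 2385 in DX5+ cells) and Dusp10 (2877 in DX5- against 1205 in DX5+ cells), and most pairs of points touch or nearly touch.

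As a partial measure of error, probe sets of the same gene were compared. For 4043 genes with 2 or more probe sets above the limit on both arrays, ratios of probe sets of 1 gene scattered with an SD of 0.32 on the log2 scale, a factor of 1.25. This covers probe noise and leaves out differences between preparations and mice. Of the 35 detected phosphatase-set genes, 21 had a ratio smaller than 1 such SD, 60.0% of them against 52.3% of all detected genes. In 14 of the 16 with several detected probe sets, all of those lay on the same side of 0, with Dusp7 and Ptprj as the exceptions. The count takes in bounds and ratios near 0, such as 0.034 for 1 probe set of Dusp11. The same share over all genes was not computed, so the count is no measure of how reliable this set is.

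**Figure D2:**
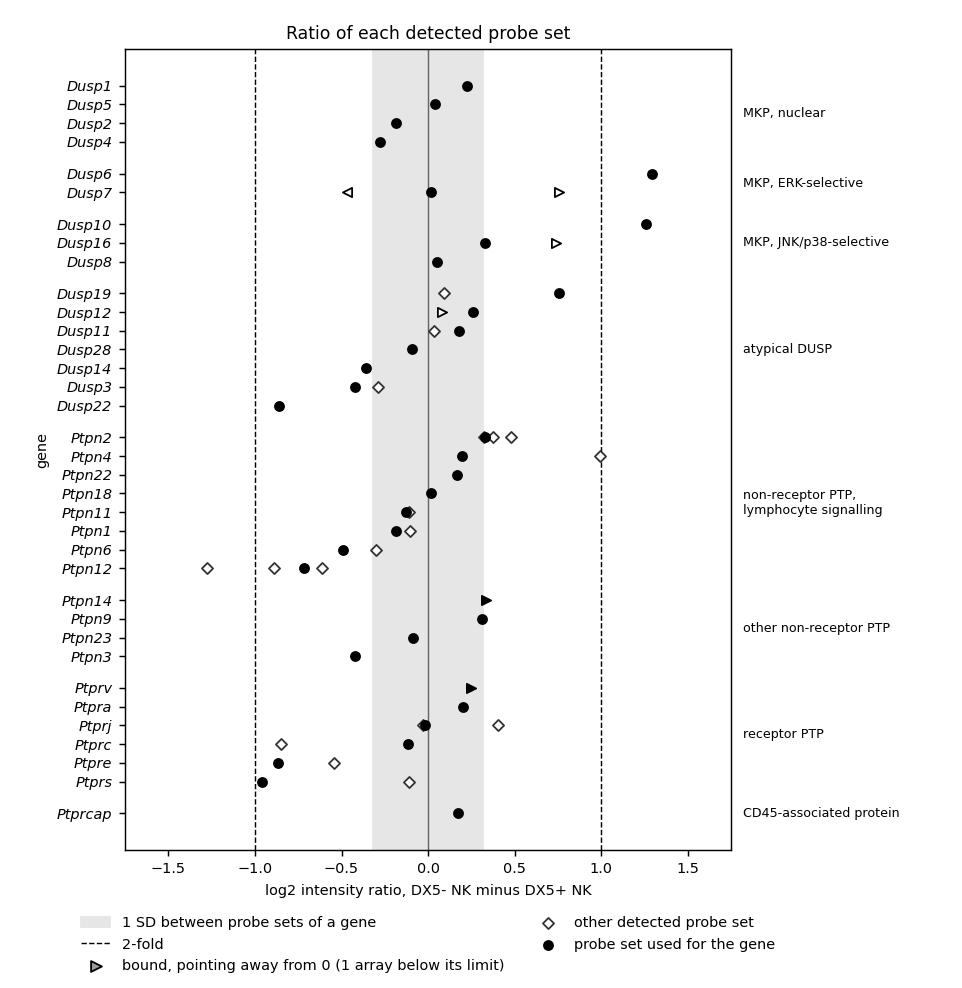
Log2 intensity ratio, DX5- minus DX5+, of each detected probe set of the 35 genes; filled symbols are the probe sets that stand for the gene, open symbols the others, triangles are bounds, the grey band is 1 SD between probe sets of a gene and dashed lines mark 2-fold. Dusp6 (1.29) and Dusp10 (1.26) lie beyond the right-hand line, and all 4 probe sets of Ptpn12 lie left of the band.

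The ERK-selective MAP kinase phosphatases of the cytoplasm were led by Dusp6. Dusp6 (MKP-3), which binds and inactivates ERK1 and ERK2 and is itself a transcriptional target of ERK signalling, read 5834 in DX5- against 2385 in DX5+ cells. It was thus 2.45-fold higher in DX5- cells, a ratio reached in that direction by 2.02% of all detected genes, and rests on a single probe set. Its close relative Dusp7 read 164 in DX5- against 162 in DX5+ cells, a ratio near 1, although its other detected probe sets went opposite ways, at least 1.69-fold higher in one and at least 1.39-fold lower in the other. Dusp9, the remaining gene of this class, was below the limit on both arrays.

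The MAP kinase phosphatases that prefer JNK and p38 were led by Dusp10. Dusp10 (MKP-5), a phosphatase of JNK and p38, read 2877 in DX5- against 1205 in DX5+ cells. That is 2.39-fold higher in DX5- cells, a ratio reached in that direction by 2.16% of all detected genes; a second probe set of the gene was below the limit on both arrays. With the mean over both probe sets Dusp10 fell short of 2-fold, at a log2 ratio of 0.82. Dusp16 (MKP-7), a phosphatase of JNK, was on the same side but nearer to 1, with 1240 in DX5- against 987 in DX5+ cells (1.26-fold higher) and at least 1.67-fold higher by a second probe set. Dusp8 read 206 in DX5- against 199 in DX5+ cells.

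The nuclear, inducible MAP kinase phosphatases were close to equal. Dusp1 (MKP-1), an immediate early gene whose product acts on p38 and JNK, read 20920 in DX5- against 17888 in DX5+ cells. Dusp2 (PAC-1), a phosphatase of activated leukocytes, read 15182 in DX5- against 17262 in DX5+ cells. The ratios were 1.17-fold higher for Dusp1 and 1.14-fold lower for Dusp2. Dusp5, a nuclear phosphatase for ERK, read 16747 in DX5- against 16308 in DX5+ cells, and Dusp4 (MKP-2) read 817 in DX5- against 991 in DX5+ cells. The median log2 ratio of these 4 genes was -0.073 (0.14 with spike-in scaling), and none of their ratios exceeded 1 SD between probe sets.

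The sequences before the transcription start of Dusp6 and Dusp10, the genes that were higher in DX5- cells, are set beside those of Dusp1, Dusp2 and Dusp5, which were near equal, to show promoters of MAP kinase phosphatase genes with different ratios. The 250 bases before the start come from RefSeq, build GRCm38.p6: Dusp6 at chr10:99262981-99263230, plus strand; Dusp10 at chr1:184034131-184034380, plus strand; Dusp1 at chr17:26508473-26508722, minus strand; Dusp2 at chr2:127335909-127336158, plus strand; and Dusp5 at chr19:53528895-53529144, plus strand. Each is printed 5′ to 3′ on the strand of the gene, and capitals mark every match, on either strand, to the 7 motifs searched. The cyclic AMP response element, or CRE, was searched as TGACGTCA. The AP-1 element of Fos and Jun proteins was searched as TGANTCA. The motif of ETS factors was searched as CCGGAA. The E-box of basic helix-loop-helix proteins was searched as CACGTG. The GC box of Sp1-type proteins was searched as GGGCGG. The TATA box of core promoters was searched as TATAAA. The last was the CArG box of serum response factor.
Dusp6: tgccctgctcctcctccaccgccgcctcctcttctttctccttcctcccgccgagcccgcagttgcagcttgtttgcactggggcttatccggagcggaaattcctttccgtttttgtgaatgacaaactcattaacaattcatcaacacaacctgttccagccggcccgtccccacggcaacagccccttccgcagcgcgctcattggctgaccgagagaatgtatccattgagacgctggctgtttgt
Dusp10: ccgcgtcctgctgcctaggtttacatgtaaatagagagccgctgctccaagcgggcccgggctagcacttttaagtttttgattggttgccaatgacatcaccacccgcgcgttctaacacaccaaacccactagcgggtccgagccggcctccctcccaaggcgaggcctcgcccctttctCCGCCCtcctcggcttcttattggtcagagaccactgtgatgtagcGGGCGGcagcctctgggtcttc
Dusp1: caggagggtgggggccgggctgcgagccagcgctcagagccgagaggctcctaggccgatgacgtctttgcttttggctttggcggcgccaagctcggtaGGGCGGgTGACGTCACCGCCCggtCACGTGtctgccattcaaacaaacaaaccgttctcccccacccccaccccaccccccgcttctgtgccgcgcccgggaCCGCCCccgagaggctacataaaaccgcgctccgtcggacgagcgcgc
Dusp2: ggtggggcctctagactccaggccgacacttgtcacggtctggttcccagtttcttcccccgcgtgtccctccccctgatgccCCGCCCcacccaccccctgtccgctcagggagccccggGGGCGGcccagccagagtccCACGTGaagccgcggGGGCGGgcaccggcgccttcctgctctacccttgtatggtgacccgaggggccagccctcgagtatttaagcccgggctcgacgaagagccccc
Dusp5: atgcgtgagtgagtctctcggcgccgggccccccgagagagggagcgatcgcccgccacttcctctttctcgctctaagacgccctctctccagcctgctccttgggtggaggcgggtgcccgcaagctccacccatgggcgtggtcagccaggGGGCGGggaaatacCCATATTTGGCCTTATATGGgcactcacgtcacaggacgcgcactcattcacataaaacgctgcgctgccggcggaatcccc

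No match to any of the 7 motifs was found in the Dusp6 window, and Dusp10 held 2 GC boxes, the more distal ending 63 bases and the nearer 17 bases before the start. Dusp1 held a CRE from 143 to 136 bases before the start, directly followed by 1 of its 3 GC boxes, and an E-box from 126 to 121 bases before it. Dusp2 held an E-box and 3 GC boxes, and Dusp5 held 2 CArG boxes side by side, from 82 to 73 and from 72 to 63 bases before the start, and 1 GC box. None of these matches overlapped another. Over all 32851 RefSeq windows of the same length, 1.55% held the CRE, 1.47% a CArG box, 6.02% the E-box and 32.7% a GC box. AP-1 was held by 6.75%, ETS by 12.0% and the TATA box by 12.4%. Of the 29 detected genes of the set with a window, 3 held a CRE (Dusp1, Dusp8 and Ptpn11), 1 a CArG box, 3 an E-box and 20 a GC box in at least 1 window. A further 1 held AP-1 (Ptpre), 3 held ETS and 2 held a TATA box. The set was counted by gene, in any of its windows, and the background by window, over detected and undetected genes alike. These shares are therefore unlike measures, and no enrichment is read from them. A median window had 52.4% G and C, against 56.4% for Dusp6, 59.6% for Dusp10, 68.4% for Dusp1, 70.4% for Dusp2 and 64.0% for Dusp5.

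Atypical dual-specificity phosphatases, which lack the MAP kinase binding domain of the typical ones, had 7 detected genes with a median log2 ratio of -0.091 (0.13 with spike-in scaling). Of these, 0 were past 2-fold, in a list too short to tell this from the 8.99% of all detected genes. Dusp19, linked to the JNK pathway, read 301 in DX5- against 178 in DX5+ cells, 1.69-fold higher. By its second detected probe set it read 143 in DX5- against 134 in DX5+ cells, so the ratio depends on the probe set. Dusp22, a phosphatase of the kinase Lck in T cells, read 180 in DX5- against 327 in DX5+ cells, 1.82-fold lower by its only probe set. Dusp3 (VHR), which acts on ERK and JNK, was 1.34-fold lower (254 in DX5- against 341 in DX5+ cells), and both of its detected probe sets were lower. The other detected genes of the class, Dusp11 (an RNA phosphatase), Dusp12, Dusp14 and Dusp28, ranged from 1.28-fold lower for Dusp14 to 1.20-fold higher for Dusp12.

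Among non-receptor tyrosine phosphatases of lymphocyte signalling, 8 of 8 genes with a probe set were detected, beside 9843 of all 18194 genes. The median log2 ratio was -0.055 (0.16 with spike-in scaling). None was past 2-fold, beside 8.99% of all detected genes, and the list is too short to tell these apart. Ptpn12 (PTP-PEST), which acts on cytoskeletal and adhesion proteins, was the gene farthest from equal, with 6217 in DX5- against 10218 in DX5+ cells, 1.64-fold lower. All 4 of its probe sets were lower in DX5- cells, by 1.53 to 2.42-fold. Ptpn6, which encodes SHP-1, the phosphatase recruited by inhibitory NK receptors, read 1091 in DX5- against 1535 in DX5+ cells, 1.41-fold lower, and 1.23-fold lower by its second probe set. Its relative Ptpn11 (SHP-2) read 2405 in DX5- against 2623 in DX5+ cells, a difference of 1.09-fold.

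The other members of this list were within 1.26-fold of equal, on both sides. Ptpn2 (TC-PTP), which dephosphorylates JAK1, JAK3 and STAT proteins, read 10346 in DX5- against 8238 in DX5+ cells, 1.26-fold higher; its 4 probe sets agreed in direction, from 1.25 to 1.39-fold higher. Ptpn22, which works with the kinase Csk to inactivate Lck and ZAP-70, read 17330 in DX5- against 15445 in DX5+ cells. Ptpn1 (PTP1B), a phosphatase of JAK2 and TYK2, read 6414 in DX5- against 7308 in DX5+ cells. Ptpn18 read 8589 in DX5- against 8498 in DX5+ cells. All of these ratios but that of Ptpn2, which lay just beyond it, were smaller than 1 SD between probe sets. Ptpn4 was 1.14-fold higher by the probe set that stands for it (695 in DX5- against 607 in DX5+ cells).

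Of the other non-receptor genes, Ptpn9, Ptpn23 and Ptpn3 were detected on both arrays, at 1.24-fold higher, 1.06-fold lower and 1.34-fold lower in DX5- cells. Ptpn14 was above the limit in DX5- cells only (136, against 79.1 in DX5+ cells), which gives a bound of at least 1.26-fold higher. Ptpn5, Ptpn13, Ptpn20 and Ptpn21 were below the limit on both arrays.

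Receptor tyrosine phosphatases were detected for 6 of 18 genes with a probe set, beside 9843 of all 18194 genes. Their median log2 ratio was -0.066 (0.15 with spike-in scaling). The 0 past 2-fold stand beside 8.99% of all detected genes, and the list is too short to tell these apart. Ptprc, which encodes CD45, the phosphatase that keeps Src-family kinases ready in all leukocytes, read 29891 in DX5- against 32390 in DX5+ cells. By its second, dimmer probe set Ptprc was 1.80-fold lower, so its ratio depends on the probe set. Ptprs, a receptor phosphatase that binds proteoglycans, was the farthest from equal, with 182 in DX5- against 353 in DX5+ cells, 1.95-fold lower; its second detected probe set was 1.08-fold lower, so the size rests on 1 probe set. Ptpre, which acts on Src-family kinases, read 1173 in DX5- against 2143 in DX5+ cells, 1.83-fold lower, and was 1.46-fold lower by its second probe set. Both genes were on the low side in DX5- cells.

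Of the remaining receptor types, Ptpra and Ptprj were near equal and Ptprv has only a bound. Ptpra, an activator of Src-family kinases, read 926 in DX5- against 806 in DX5+ cells. Ptprj (CD148) read 493 in DX5- against 499 in DX5+ cells. Ptprv was above the limit in DX5- cells only, at 128 against 99.9 in DX5+ cells, a bound of at least 1.19-fold higher. Ptprcap, the CD45-associated protein, read 2748 in DX5- against 2437 in DX5+ cells, and the probe sets that stand for CD45 and for its partner both differed by less than 1 SD between probe sets.

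Below both limits were 24 genes: Dusp9, Dusp13, Dusp15, Dusp18, Dusp21, Dusp23, Dusp26 and Dusp27, the non-receptor genes Ptpn5, Ptpn13, Ptpn20 and Ptpn21, and the receptor genes Ptprb, Ptprd, Ptprf, Ptprg, Ptprk, Ptprm, Ptprn, Ptprn2, Ptpro, Ptprr, Ptpru and Ptprz1. No fold is given for them. Dusp29, Ptpn7, Ptprh, Ptprq and Ptprt had no probe set listed for them alone and were not analysed here.

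**Figure D3:**
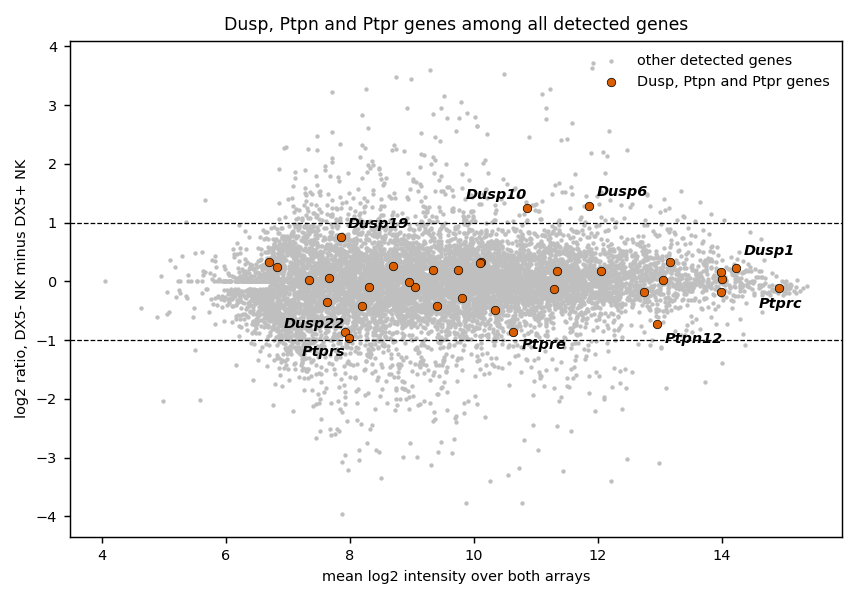
Log2 ratio, DX5- minus DX5+, against mean log2 intensity over both arrays for all 9843 detected genes (grey) and the 35 detected Dusp, Ptpn and Ptpr genes (orange); dashed lines mark 2-fold, and genes below the limit on 1 array are drawn at their bound. Dusp6 and Dusp10 are the orange points above the upper line, and no orange point lies below the lower line.

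Markers of other cells moved with the direction of several of these genes. All 6 platelet markers were at least 2-fold lower in DX5- cells, with a summed intensity of 1060 in DX5- against 5606 in DX5+ cells. For macrophages and Kupffer cells 4 of 10 markers were detected, 3 of them at least 2-fold lower (summed intensity over all 10 of 1039 in DX5- against 3726 in DX5+ cells), and the defining Kupffer cell genes Clec4f, Timd4, C1qa, C1qb, C1qc and Cd163 were below the limit on both arrays. Neutrophil markers were detected 5 of 5, with 3 at least 2-fold lower and sums of 3680 in DX5- against 9500 in DX5+ cells. The part of these cells in the lower intensities of Ptpn12, Ptpn6, Ptpre, Ptprs and Dusp22 in DX5- cells was not tested. The same holds for the lower genes of the lists below, such as Rasa3. On the opposite side, although both populations were sorted as CD3 negative, 6 of 8 T cell markers were detected and 3 were at least 2-fold higher in DX5- cells (summed intensity 25084 in DX5- against 10681 in DX5+ cells), while Cd4 and Cd8b1 were below the limit on both arrays. Cd3g, at 14036 in DX5- against 1072 in DX5+ cells, made up most of the difference between the sums, and Cd28, the next brightest, was lower, at 7668 in DX5- against 8442 in DX5+ cells. The part of T cells in the higher intensities of Dusp6 and Dusp10, or of Zap70 and Ubash3a in the lists below, was not tested. In a bulk sample, fewer cells of a type and less RNA per cell cannot be told apart. Of the other lists, B cell, endothelial and stellate cell markers had 0 members past 2-fold, and dendritic cell and hepatocyte markers had 1 each, lower in DX5- cells.

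The kinases that the MAP kinase phosphatases act on, and the proteins above them, were mostly within 2-fold in both populations. Of 25 detected genes of the cascade, 0 passed 2-fold upward and 2 downward, a number near the 3.62% upward and 5.37% downward of all detected genes; their median log2 ratio was -0.18, against -0.012 over all detected genes. With spike-in scaling 1 passed upward and 0 downward, and the median was 0.038. The lower pair was Sos1, an exchange factor for Ras (249 in DX5- against 503 in DX5+ cells, 2.02-fold lower), and Map3k1, a kinase upstream of JNK (913 in DX5- against 1840 in DX5+ cells, also 2.02-fold lower). Mapk14, which encodes p38 alpha, a substrate of the Dusp10 product, read 2351 in DX5- against 4372 in DX5+ cells, 1.86-fold lower. Map2k5, a kinase of the ERK5 branch, read 498 in DX5- against 289 in DX5+ cells, 1.73-fold higher. Mapk9 (JNK2) was 1.68-fold lower, and Mapk8 (JNK1) was 1.25-fold lower, within 1 SD between probe sets. The ratios of Sos1 and Map3k1 lie just past the 2-fold line. In this list and those below, the brightest probe set stood for each gene, and its other probe sets were not compared.

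A list drawn up as other feedback inhibitors of the ERK pathway was set beside Dusp6. It also takes in regulators of Ras, such as Dok1 and Rasa3, and Ier3, which was not established as an inhibitor. Whether each member is induced by ERK signalling or inhibits it was not tested. The counts and median below therefore describe the list and are no measure of ERK feedback. Of 11 detected genes, 0 passed 2-fold upward and 1 downward, against 3.62% upward and 5.37% downward of all detected genes, shares that give less than 1 gene each way in a list this short. Their median log2 ratio was -0.10 (0.11 with spike-in scaling). Spry2, a Sprouty protein induced by ERK signalling as Dusp6 is, read 12137 in DX5- against 8951 in DX5+ cells, 1.36-fold higher. Spry4 read 112 in DX5- against 132 in DX5+ cells, near the detection limits and within 1 SD between probe sets, so no direction is read from it. Dok1, an adaptor that recruits RasGAP, was 1.39-fold higher and Ier3 1.45-fold lower. Rasa3, a GTPase-activating protein for Ras and Rap1, was the exception in size, with 703 in DX5- against 4572 in DX5+ cells, 6.50-fold lower. The platelet markers were lower in DX5- cells too, and their part in the ratio of Rasa3 was not tested.

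Tyrosine kinases of lymphocytes, whose products the Ptpn and Ptpr enzymes oppose, had members on both sides. Of the 15 detected, 2 passed 2-fold upward and 1 downward, beside 3.62% and 5.37% of all detected genes, and the median log2 ratio was 0.038 (0.26 with spike-in scaling). Zap70, the kinase bound to phosphorylated CD3 zeta and a target of Ptpn22, read 3515 in DX5- against 1362 in DX5+ cells, 2.58-fold higher, and Syk, its relative, read 1061 in DX5- against 1847 in DX5+ cells, 1.74-fold lower. Jak3, which serves the common gamma chain and is a target of Ptpn2, was 2.04-fold higher (419 in DX5- against 206 in DX5+ cells). Yes1, a Src-family kinase, was 2.43-fold lower (148 in DX5- against 359 in DX5+ cells). Csk, the partner of Ptpn22, was 1.53-fold higher and Fyn 1.70-fold lower.

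Further members of the tyrosine phosphatase superfamily outside the Dusp, Ptpn and Ptpr names were past 2-fold on both sides. Of the 25 detected, 2 passed 2-fold upward in DX5- cells and 4 downward, beside 3.62% and 5.37% of all detected genes, and the median log2 ratio was -0.31 (-0.091 with spike-in scaling, under which 3 passed downward). Eya1, a transcriptional coactivator with tyrosine phosphatase activity, read 271 in DX5- against 1157 in DX5+ cells, 4.27-fold lower, whereas its relative Eya2 read 457 in DX5- against 225 in DX5+ cells, 2.03-fold higher. Ssh1, which activates the actin-severing protein cofilin, was 3.03-fold lower (1837 in DX5- against 5571 in DX5+ cells). Cdc25b, an activator of cyclin-dependent kinases, was 2.96-fold lower and Cdc14b, a phosphatase of cell division, 2.23-fold lower. Ubash3a, a suppressor of T cell receptor signalling, was at least 2.07-fold higher (223 in DX5- against 88.5 in DX5+ cells, which is below the limit).

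**Figure D4:**
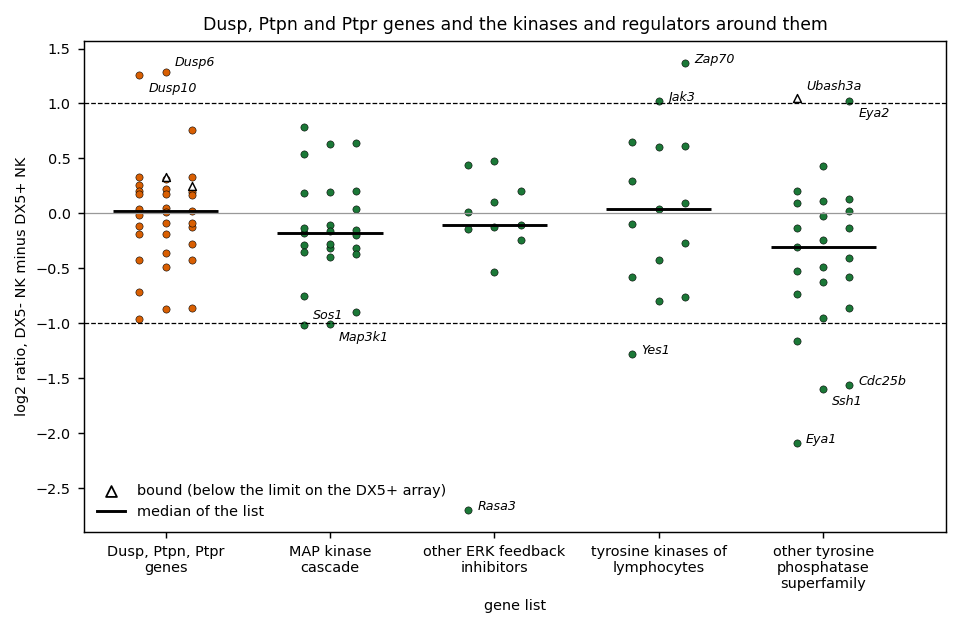
Log2 ratio, DX5- minus DX5+, of each detected gene of the Dusp, Ptpn and Ptpr set (left, orange) and of 4 lists around it, with the median of each list as a bar and 2-fold as dashed lines; triangles are bounds. The medians lie between -0.31 (other tyrosine phosphatase superfamily) and 0.038 (tyrosine kinases), and Rasa3 (-2.70) is the lowest point.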

How the data were processed

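The deposited table holds 1 linear intensity per probe set for each of 2 arrays; per the submitters' processing notes the authors' software for these intensities was MAS5, whose version and settings are not stated there. It carries no detection calls or scanner values, and the number of arrays limits the precision. Of the probe sets, 34958 had 1 gene symbol in the platform annotation, 932 had several and 9211 are unnamed here; 34754 matched RefSeq (GRCm38.p6) by gene identifier. Those listed for several genes named none and included no Dusp, Ptpn or Ptpr gene.

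Intensities were taken to log2 with no offset, and the log2 ratio is DX5- minus DX5+. Below an array's detection limit a value was set to that limit, which gives a bound ("at least"); a bound on the wrong side of equality was set to a ratio of 1. The steps, in Python 3.11.15 with pandas, were tested on simulated data. With 1 array per group no test was possible. Every detected gene of the set was named, and of the other lists those past 2-fold plus those with the largest ratios and, chosen after their values were seen, Mapk8, Mapk9, Spry4, Fyn and Csk. The genes, lists and thresholds were chosen with earlier results of these data known. Of the 59 genes, 47 matched a RefSeq promoter. Scaling, detection limit, probe set choice and an offset were varied.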

Additional observations from a re-analysis of the deposited data

How the results depend on the processing

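Dusp6 and Dusp10 were the genes at least 2-fold higher in DX5- cells, with 0 at least 2-fold lower, under spike-in scaling, median centring, quantile normalization, the limit at the 99th percentile or at the array median, an offset of 50 and a choice that left out _x_at and _s_at probe sets. With the mean over probe sets 31 genes were detected, against 35, and 1 was higher, Dusp6, because Dusp10 (log2 0.82) then includes its dim probe set. With no detection limit all 59 genes entered, 5 were higher and 6 lower, and the median log2 ratio turned to -0.088, against 0.020; the genes added were below the limit on both arrays. The median was 0.24 with spike-in scaling, which moved the median of all detected genes to 0.20 as well, and 0.105 with the mean over probe sets. At 1.5-fold, chosen after the data were seen, 4 genes were lower. Of the log2 ratios of Dusp6, Dusp10, Dusp19, Dusp22, Ptpn12, Ptpre and Ptprs under these alternatives, 56 moved by less than the probe set SD and 5 by more. Dusp19 and Ptprs have no value with the mean over probe sets, which put both below the limits. Many of the 56 could not have moved further. Spike-in scaling and median centring shift every measured ratio by a constant smaller than that SD. A lower limit, or none, leaves a ratio measured above both limits unchanged. The count of 56 is therefore no measure of how firm these ratios are. The 5 were Dusp10 as above, Dusp19, Dusp22 and Ptprs at 0 with the limit at the 99th percentile (385 for DX5- and 159 for DX5+ cells), and Dusp19 at 0.093 without _s_at probe sets. No paired analysis was possible because each group had 1 array. For the same reason no replicate could be left out.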

Other observations

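Probe sets of the same phosphatase gene gave different ratios in a few cases, chosen after their values were seen. A second probe set of Ptpn4 read 348 in DX5- against 175 in DX5+ cells, 1.99-fold higher, beside the 1.14-fold of the probe set that stands for the gene. For Ptprc, a second probe set read 2588 in DX5- against 4662 in DX5+ cells, 1.80-fold lower, beside 1.08-fold lower for the brighter one. The probe set of Ptpn12 with the lowest ratio read 1824 in DX5- against 4412 in DX5+ cells, 2.42-fold lower. Which transcripts these probe sets read was not tested.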
